A study of Mus musculus with 2 samples.

Results

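The BCL2 family decides at the mitochondrial outer membrane whether a cell lives or dies, and 10 of its genes were examined in mouse oocytes with and without the histone acetyltransferase gene *Kat8*. The genes were chosen by name: the pro-survival genes *Bcl2*, *Bcl2l1*, *Bcl2l10* and *Mcl1*, the effectors *Bax*, *Bak1* and *Bok*, and the BH3-only genes *Bik*, *Bcl2l11* and *Bbc3*. All 10 were found among the 18467 genes of the authors' table. The data are RNA-seq values from oocytes of C57BL/6 mice aged 2 weeks. There is 1 wild type library and 1 library of *Kat8* *Gdf9* cKO oocytes, made from mice with *Gdf9*-Cre and *Kat8* fl/fl alleles, called cKO below. The *Gdf9* promoter drives Cre in oocytes, so the surrounding follicle cells were not the target of the deletion. The number of animals behind each library is not given in the labels.

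Pro-survival members of the family bind and hold in check the effectors BAX and BAK1, which can form pores in the mitochondrial outer membrane and release cytochrome c. BH3-only proteins either occupy the pro-survival proteins or engage the effectors directly, and they are made or activated in response to stress, DNA damage or loss of growth factors. In the mouse ovary these proteins set how many oocytes survive: loss of *Bax* preserves oocytes, and oocytes that lack *Mcl1* are lost early.

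The sequence that gives the BH3-only class its name is shown first, because this short stretch is how members of the family bind one another. A search of the coding sequences of 8 members for a leucine codon, 3 further codons, a glycine or alanine codon, an aspartate codon and then a codon for aspartate, glutamate or glycine gave exactly 1 match in each. *Bik* and *Bcl2l10* were not searched. The 9 codons from the leucine on are printed for each gene, 5′ to 3′ on the coding strand, from GENCODE transcripts with GRCm38 positions. Capitals mark the leucine codon, the glycine or alanine codon and the aspartate codon.
*Mcl1* (chr3:95659436-95659462, plus strand): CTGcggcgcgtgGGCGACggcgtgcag
*Bcl2l1* (chr2:152829697-152829723, minus strand): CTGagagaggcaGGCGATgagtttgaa
*Bcl2* (chr1:106712575-106712601, minus strand): CTCcgccgggctGGGGATgacttctct
*Bax* (chr7:45465997-45466023, minus strand): CTCcggcgaattGGAGATgaactggac
*Bak1* (chr17:27022531-27022557, minus strand): CTTgctctcatcGGAGATgatattaac
*Bok* (chr1:93686657-93689170, plus strand): CTGctgcgcttgGGAGATgagctggag
*Bcl2l11* (chr2:128147150-128147176, plus strand): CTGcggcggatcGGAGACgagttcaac
*Bbc3* (chr7:16313773-16313799, plus strand): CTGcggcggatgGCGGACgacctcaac

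Among the 8 genes searched, the match was shared by pro-survival, effector and BH3-only genes alike. It depended on the alternatives allowed: alanine was needed for *Bbc3* alone, and glycine at the last codon searched for *Mcl1* alone. The middle codon in capitals stands for glycine in 7 of the 8 genes and for alanine in *Bbc3*. In *Bok* the stretch is split over 2 exons, so that its positions span an intron.

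Expression is given in FPKM, fragment counts that the authors scaled for transcript length and for library size. The total number of fragments is unknown. Among 3488 genes under 0.6 FPKM in both libraries, the commonest ratio of the cKO to the wild type value was 1.24, the ratio of 1 fragment to 1 fragment, so a given low FPKM rests on fewer fragments in cKO oocytes. With 1 library per genotype no difference below has a replicate check or a test, and the genotype cannot be told apart from the individual library. *Kat8*, the targeted gene, stood at 166 FPKM in wild type and 0.985 FPKM in cKO oocytes. Of the 12 oocyte markers examined, all were above 19 FPKM in both libraries, and *Gdf9* stood at 5201 and 7658 FPKM in wild type and cKO oocytes, respectively.

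One gene dominated the family. *Bcl2l10*, also called Diva or Boo, a member for which both protection from and promotion of cell death have been described, stood at 4033 FPKM in wild type and 2529.8 FPKM in cKO oocytes. It ranked 13 among all genes in wild type and 18 in cKO oocytes. Together the 10 members summed to 4309 and 2699 FPKM, and *Bcl2l10* made up 98.4% and 95.9% of the pro-survival sum in wild type and cKO oocytes. The level in the cKO library was 1.59-fold lower, short of the 2-fold difference used here as the rule of size.

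A gene was called higher or lower in the cKO library when it reached 1 FPKM in either library and its log2 ratio of cKO over wild type, computed on FPKM + 0.1, was at least 1 or at most -1. Of the members 9 of 10 reached that floor. By this rule 3 members were higher, *Mcl1*, *Bcl2* and *Bak1*, 1 was lower, *Bik*, and 5 were neither. Among all 11816 genes past the floor, 18.2% were called higher and 12.2% lower, which for 9 genes corresponds to 1.64 higher and 1.10 lower. *Bcl2* and *Bak1* reached the floor in the cKO library alone, so they had to stand higher there. The median log2 ratio of all 10 members was 0.39, and that of all 18467 genes 0.12.

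**Figure D1:**
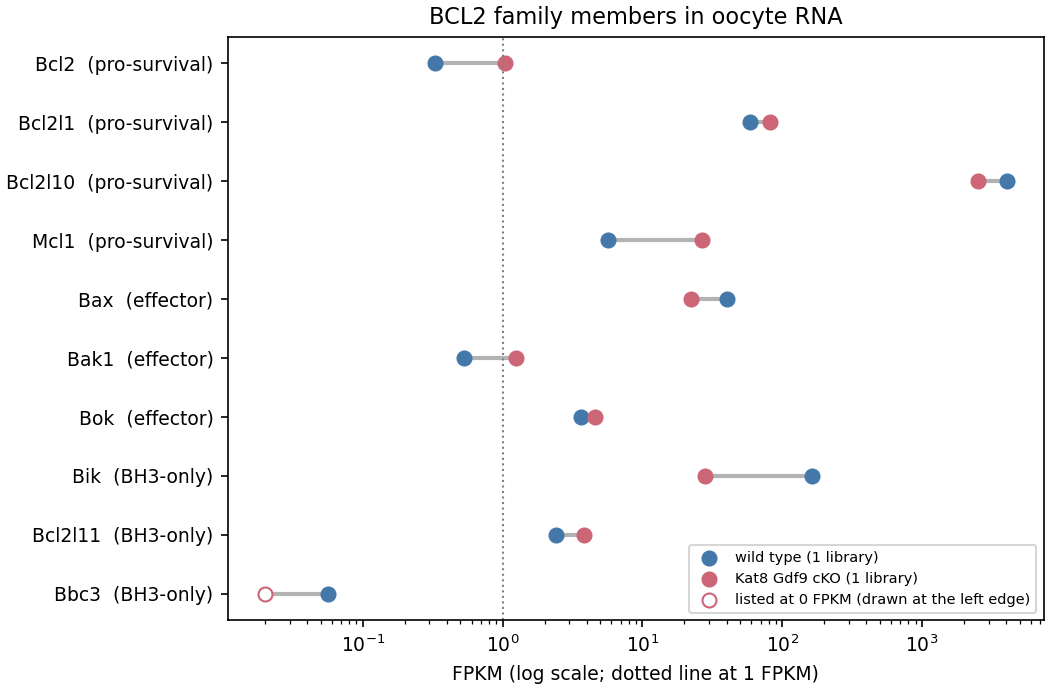
FPKM of each of the 10 members on a log axis, with 1 point for the wild type library and 1 for the cKO library joined by a line. *Bcl2l10* lies far to the right of all others in both libraries, *Bik* has the longest line to lower values (164 to 28.0 FPKM) and *Mcl1* a long line to higher values (5.72 to 26.7 FPKM).

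Among the other pro-survival genes, *Mcl1* stood out. *Mcl1*, which encodes a protein of short half-life that restrains BAK1 and BIM, stood at 5.72 FPKM in wild type and 26.7 FPKM in cKO oocytes, 4.67-fold higher (log2 ratio 2.20). Its ratio lay at percentile 96.4 of the genes past the floor. It moved from rank 6831 to rank 3104 among all genes. In the wild type library *Mcl1* was below *Bax*, at 0.141 times its FPKM, and in the cKO library it was above it, at 1.21 times.

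*Bcl2l1*, which encodes BCL-XL, an inhibitor of BAX and BAK1, stood at 59.3 FPKM in wild type and 81.3 FPKM in cKO oocytes, 1.37-fold higher and short of the rule. It was the most abundant pro-survival member after *Bcl2l10* in both libraries, 10.4 times the FPKM of *Mcl1* in wild type and 3.04 times in the cKO library. *Bcl2*, the founding member of the family, was scarce, at 0.331 and 1.03 FPKM in wild type and cKO oocytes, respectively. Its 3.12-fold difference rested on values near or under 1 FPKM. Without *Bcl2l10*, the pro-survival genes summed to 65.3 FPKM in wild type and 109 FPKM in cKO oocytes, 1.67-fold higher, whereas with it their sum was 1.55-fold lower.

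The effector genes were led by *Bax*. *Bax*, whose product moves from the cytosol to mitochondria to form pores, stood at 40.4 FPKM in wild type and 22.2 FPKM in cKO oocytes, 1.82-fold lower, which is just short of the rule (log2 ratio -0.86). *Bak1*, the effector that resides in the mitochondrial membrane, stood at 0.527 and 1.25 FPKM, 2.38-fold higher and just past the rule (log2 ratio 1.11). *Bok*, the BCL2-related ovarian killer, stood at 3.62 and 4.58 FPKM, 1.27-fold higher, with a log2 ratio of 0.33 that became -0.19 once a fit on transcript length and GC content was subtracted. *Bax* made up 90.7% of the effector sum in wild type and 79.1% in the cKO library. The quotient of *Bax* over *Bak1* FPKM was 76.6 in wild type and 17.7 in cKO oocytes. *Bak1* shares 614 exonic bases with *Ggnbp1* on the other strand, which was listed at 1.56 and 0.670 FPKM, and since strand-specific counting is not stated, the shared bases leave both values uncertain. *Bcl2* shares 558 exonic bases with an antisense gene, *D630008O14Rik*, and *Bax* 192 with *Gm45808* on its own strand, so the same holds for those stretches. No exon of another gene overlapped the other 7 members in the GENCODE annotation.

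The BH3-only genes were led by *Bik*, and on the deposited FPKM scale the log2 ratio of *Bik* was the farthest from 0 among the 9 members past the floor. With TPM that of *Mcl1* (2.45) was farther from 0 than that of *Bik* (-2.30), as it was with equal sums without the 50 most abundant genes (2.41 and -2.34). *Bik*, whose product binds pro-survival proteins and sits mainly in the endoplasmic reticulum, stood at 164 FPKM in wild type and 28.0 FPKM in cKO oocytes, 5.85-fold lower (log2 ratio -2.54). Its ratio lay at percentile 0.994 of the genes past the floor. In the wild type library *Bik* was the second most abundant member, at 2.76 times the FPKM of *Bcl2l1*, and in the cKO library it was the third, at 0.344 times. *Bcl2l11*, which encodes BIM, a potent activator of BAX and BAK1, stood at 2.42 and 3.84 FPKM in wild type and cKO oocytes, respectively, 1.59-fold higher and short of the rule. *Bbc3*, which encodes PUMA, the p53 target that in mice helps to eliminate oocytes with DNA damage, was nearly undetected, at 0.0563 FPKM in wild type oocytes and listed at 0 for cKO oocytes. The 3 BH3-only genes summed to 166 FPKM in wild type and 31.8 FPKM in cKO oocytes, and *Bik* made up 98.5% and 87.9% of these sums.

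Set side by side, the 3 classes made up 95.1% (pro-survival), 1.03% (effector) and 3.85% (BH3-only) of the family's FPKM in the wild type library. In the cKO library the shares were 97.8%, 1.04% and 1.18%. Without *Bcl2l10*, the quotient of *Bcl2*, *Bcl2l1* and *Mcl1* together over the effectors was 1.47 in wild type and 3.90 in cKO oocytes. With *Bcl2l10* included, the pro-survival sum was 1.55-fold lower in the cKO library, and the effector sum was 1.59-fold lower. The quotient of *Bcl2l10* over *Bik* was 24.7 in wild type and 90.4 in cKO oocytes. Ordered by level, the members ran *Bcl2l10*, *Bik*, *Bcl2l1*, *Bax*, *Mcl1*, *Bok*, *Bcl2l11*, *Bak1*, *Bcl2* and *Bbc3* in the wild type library. In the cKO library *Bik* and *Bcl2l1* had exchanged places, as had *Bax* and *Mcl1*, and the other 6 places were the same. Whether neighbours in this order differ beyond the spread between replicates cannot be said from 1 library each.

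**Figure D2:**
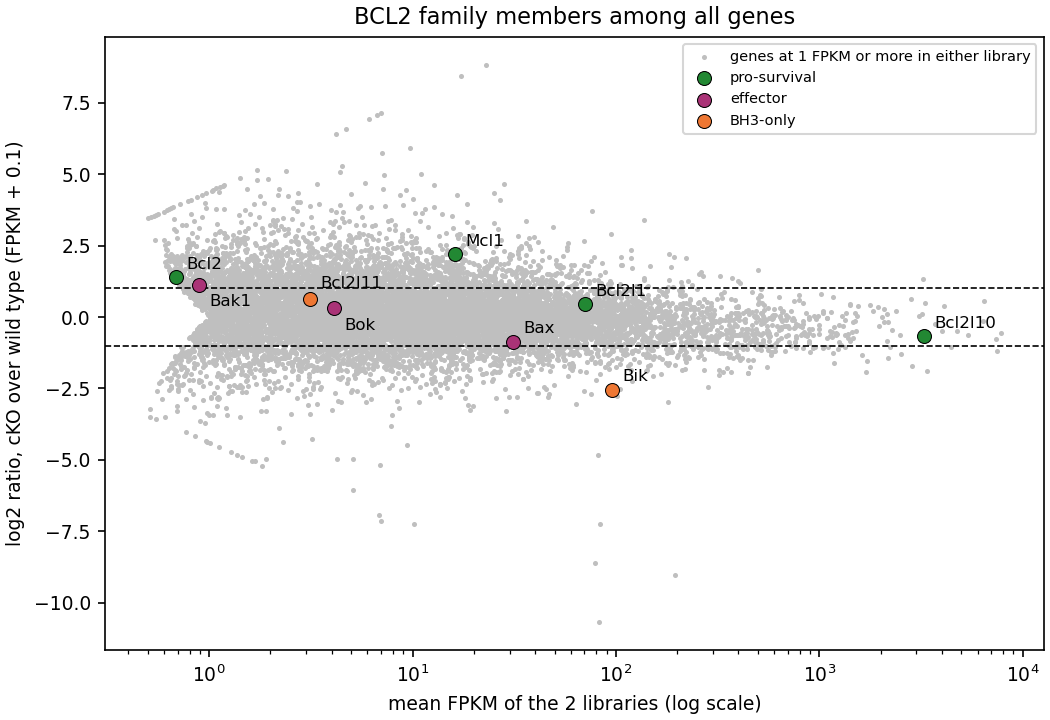
Log2 ratio of cKO over wild type (FPKM + 0.1) against the mean FPKM of both libraries on a log axis, for all 11816 genes past the floor (grey) and the 9 members past it (coloured by class); dashed lines mark 2-fold. *Mcl1* (2.20) and *Bik* (-2.54) lie outside the lines at moderate to high expression, and *Bcl2* and *Bak1* lie outside them at the low end.

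The called members differed in how far their calls depended on the settings. *Mcl1* and *Bik* were past the 2-fold rule under all 7 settings tried for the log2 ratio, with log2 ratios from 2.04 to 2.45 for *Mcl1* and from -2.88 to -2.30 for *Bik*. *Bcl2* and *Bak1* were not: with a pseudocount of 1 FPKM their log2 ratios were 0.61 and 0.56. With a floor of 5 FPKM, *Mcl1* was the 1 member called higher and *Bik* the 1 called lower, where the background was 15.5% higher and 11.7% lower of 8158 genes. Rescaling both libraries to the same FPKM sum (TPM) moved the median of all genes past the floor from 0.06 to 0.32 and raised the share of higher genes among all called from 59.8% to 75.4%. Leaving the 50 most abundant genes out of that sum gave a median of 0.28 and a share of 73.2%. Subtracting a fit on transcript length and GC content gave a median of -0.08 and a share of 52.0%, nearly as many lower as higher genes. No member changed its call with TPM or without those 50 genes.

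Transcript length ran with the ratios. Across 11397 genes past the floor with a known length, Spearman's rho between the log2 ratio and the length of the longest GENCODE transcript was 0.20, a description across genes, which are not independent replicates. The 3 members with the shortest transcripts, *Bax* (1100 bases), *Bcl2l10* (1220 bases) and *Bik* (1335 bases), were the 3 members past the floor that had lower values in the cKO library. *Mcl1* (3418 bases), *Bcl2l11* (5036 bases) and *Bcl2* (7191 bases) are the longest and had higher values. After a fit on length and GC content was subtracted, *Bik* was at -2.88 and *Mcl1* at 2.12, *Bax* passed the rule at -1.47, *Bak1* fell short of it at 0.69, *Bcl2l1* was at 0.09 and *Bok* changed sign, to -0.19. The part of length in the difference of any single member was not tested.

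**Figure D3:**
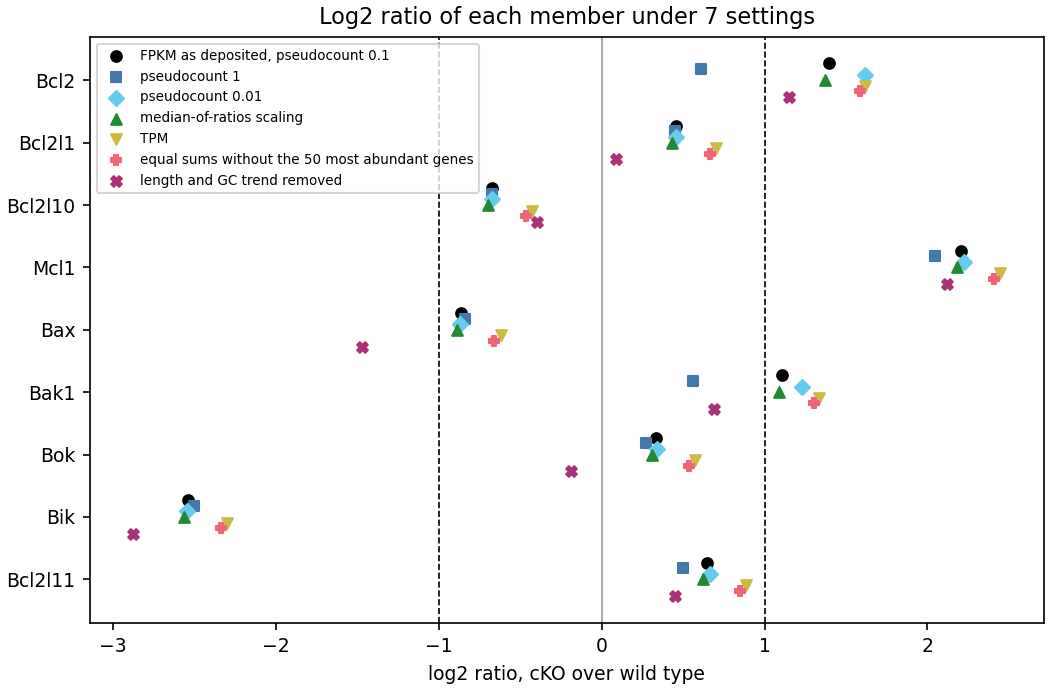
Log2 ratio of cKO over wild type for the 9 members past the floor under 7 settings, 1 symbol each; dashed lines mark 2-fold. All symbols of *Mcl1* lie right of the upper line and all of *Bik* left of the lower one, whereas *Bcl2*, *Bax* and *Bak1* have symbols on both sides of a line and *Bok* on both sides of 0.

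In the authors' deposited table, *Mcl1* was on the list of higher genes (FDR 0.00073) and *Bik* on the list of lower genes (FDR 6.47e-18), lists that hold 2.71% and 1.94% of all genes. An FDR under 0.05 was given in the authors' deposited table to 3 of the 10 members, beside 7.93% of all genes; the third member was *Bcl2l10*. The authors' deposited table gave *Bcl2l10* an FDR of 5.72e-30, and the gene was on neither list. *Bcl2l1* had an FDR of 0.063 and *Bax* one of 0.724 in the authors' deposited table, and the other 5 members one of 1. These values compare 1 library with another, not the genotypes. The deposited p-values followed the whole-number parts of the FPKM values: of 990 pairs of such parts held by more than 1 gene, 989 had a single p-value. *Bcl2* and *Bak1*, both with the parts 0 and 1, had the same p in the authors' deposited table, 0.596, as had 613 genes in all.

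Among the other genes of the family, *Pmaip1* differed most. Of 13 further BCL2 family genes listed, 10 were in the table and 5 reached the floor, of which 1 was higher, 1 lower and 3 neither, where the shares over all genes correspond to 0.909, 0.61 and 3.48 of 5. *Pmaip1*, which encodes the BH3-only protein NOXA, a p53 target that binds MCL1, stood at 0.170 FPKM in wild type and 5.32 FPKM in cKO oocytes (log2 ratio 4.33), and reached the floor in the cKO library alone. *Bcl2l15* was listed at 5.98 and 1.67 FPKM (log2 ratio -1.78). *Bad*, a BH3-only gene controlled by growth factor signalling, stood at 5.26 and 8.06 FPKM, *Bcl2l13* at 7.43 and 10.01 FPKM and *Bcl2l12* at 11.9 and 10.2 FPKM, all 3 short of the rule. *Bid*, *Bmf*, *Hrk*, *Bcl2l2* and *Bcl2a1d* were under 1 FPKM in both libraries. For *Bcl2a1d*, reads may be split with near-identical family copies, and its value is uncertain. *Bcl2a1a*, *Bcl2a1b* and *Bcl2l14* were not analysed here.

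Of 8 genes that act on the family from above, those of the p53 family and of factors that control BH3-only genes, 0 were higher, 1 was lower and 7 were neither. The shares over all genes past the floor (18.2% higher, 12.2% lower and 69.6% neither) correspond to 1.45, 0.976 and 5.57 of 8 genes. The 1 lower gene was *Trp53*, which encodes p53, at 9.85 and 3.04 FPKM in wild type and cKO oocytes, respectively (log2 ratio -1.66). *Trp63*, whose product TAp63 guards oocytes against DNA damage, stood at 6.94 and 11.7 FPKM, short of the rule. The most abundant of the list was *Ddit3* (CHOP), at 130 and 128 FPKM. Of the 7 genes for the turnover of MCL1 and BIM protein, 0 were called and 7 were neither, where the share over all genes corresponds to 4.87. The MCL1 ubiquitin ligase gene *Huwe1* stood at 7.38 and 10.7 FPKM, and the gene of the deubiquitinase *Usp9x* at 38.8 and 29.2 FPKM. *March5*, a mitochondrial ubiquitin ligase gene and the most abundant of these, stood at 92.7 and 96.6 FPKM.

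Downstream of the mitochondrial membrane, 1 of 15 genes was lower, 1 was higher and 13 were neither, where the shares over all genes correspond to 1.83, 2.73 and 10.4. The 1 lower gene was *Cycs*, which encodes cytochrome c, at 61.8 FPKM in wild type and 20.8 FPKM in cKO oocytes (log2 ratio -1.57). The 1 higher gene was *Birc2*, which encodes the inhibitor of apoptosis cIAP1, at 3.49 and 8.16 FPKM (log2 ratio 1.20). *Apaf1*, the scaffold of the apoptosome, stood at 0.851 and 1.06 FPKM, and *Diablo*, which encodes the IAP antagonist SMAC, at 18.4 and 28.0 FPKM. The most abundant gene of the list was *Birc5*, which encodes survivin, at 1554 and 1384 FPKM. *Vdac2*, whose channel protein holds BAK1 at the mitochondrion, stood at 38.6 and 37.1 FPKM. The median log2 ratios of the lists in the table were 0.57 for the other family genes, 0.17 for the upstream genes, 0.06 for the turnover genes and -0.06 for the downstream genes, beside 0.12 for all genes.

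Markers of other ovarian cells also differed between the libraries, and in bulk RNA fewer cells of a type and less RNA per cell cannot be told apart. Of 12 granulosa cell markers, 11 reached the floor, and of these 5 were higher and 0 lower in the cKO library, beside 18.2% higher and 12.2% lower of all genes, which corresponds to 2.0 and 1.34 of 11. The higher ones were *Foxl2* (3.08 and 8.34 FPKM in wild type and cKO oocytes), *Inhba* (4.62 and 17.2 FPKM), *Kitl* (1.07 and 3.44 FPKM), *Nr5a2* (6.10 and 16.8 FPKM) and *Nr5a1* (0.469 and 1.45 FPKM), and *Nr5a1* reached the floor in the cKO library alone. The summed level of the 12 was 105 FPKM in wild type and 133 FPKM in cKO oocytes, led by *Inha* at 67.3 and 62.7 FPKM, and 0 of them were listed at 0. Lower values in the cKO library were found for 4 of the 12, none of them called. These were *Inha*, *Hsd17b1* (6.48 and 3.53 FPKM), *Cyp19a1* (6.70 and 5.49 FPKM) and *Amh* (0.288 and 0.121 FPKM, under the floor). All 8 theca and stroma markers had higher values in the cKO library, with sums of 1.87 and 9.36 FPKM, and *Lum* was listed at 0 in the wild type. The 3 of them past the floor, *Col1a2* (0.353 and 2.42 FPKM), *Dcn* (0.689 and 2.10 FPKM) and *Col1a1* (0.218 and 1.21 FPKM), were called higher. They reached the floor in the cKO library alone, so they had to stand higher there. The shares over all genes correspond to 0.546 higher and 0.366 lower of 3. The 7 blood and vessel markers in the table summed to 62.1 and 24.6 FPKM. They were led by the haemoglobin gene *Hba-a1* at 51.5 and 14.99 FPKM, and *Ptprc* was listed at 0 in the wild type. The other haemoglobin gene of the list, *Hbb-bs*, stood at only 0.00184 and 0.000488 FPKM. Without *Hba-a1* the other 6 summed to 10.6 and 9.63 FPKM. Most of that was the vessel marker *Pecam1*, with a lower value in the cKO library (9.78 and 8.14 FPKM). The vessel markers *Cdh5* (0.0361 and 0.527 FPKM) and *Kdr* (0.189 and 0.403 FPKM) had higher values there, under 1 FPKM in both libraries. The 12 oocyte markers summed to 16143 and 20392 FPKM, and 1 of them was called, *Ddx4*, at 19.4 and 57.7 FPKM. Values were higher in the cKO library for 10 of the 12 and lower for 2. The lower ones, *Bmp15* (549 and 317 FPKM) and *Nobox* (312 and 227 FPKM), were not called. For 12 genes the shares over all genes correspond to 2.18 higher and 1.46 lower. The somatic markers ran up to 67.3 FPKM in wild type and 62.7 FPKM in cKO oocytes, and 7 of the 10 members lay within that range in both libraries, *Mcl1* (5.72 and 26.7 FPKM) and *Bax* among them. *Bcl2l1* lay within it in the wild type library alone, *Bik* in the cKO library alone and *Bcl2l10* in neither. The upper end was *Inha* alone in both libraries. The next highest somatic marker was *Hba-a1* in wild type (51.5 FPKM) and *Inhba* in cKO oocytes (17.2 FPKM). In the cKO library *Mcl1*, *Bax* (22.2 FPKM) and *Bik* (28.0 FPKM) stood above *Inhba*. Of the 12 granulosa markers *Inhba* had the largest fold, 3.71-fold higher in the cKO library, and *Inha*, the most abundant, was 1.07-fold lower. The 3 theca and stroma markers past the floor were 6.84-fold (*Col1a2*), 5.55-fold (*Col1a1*) and 3.05-fold (*Dcn*) higher, from wild type values under 1 FPKM. *Mcl1* was 4.67-fold higher. The level or fold of a marker sets no limit for other genes of the same cells. The part of somatic RNA in the values of the members was not tested.

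**Figure D4:**
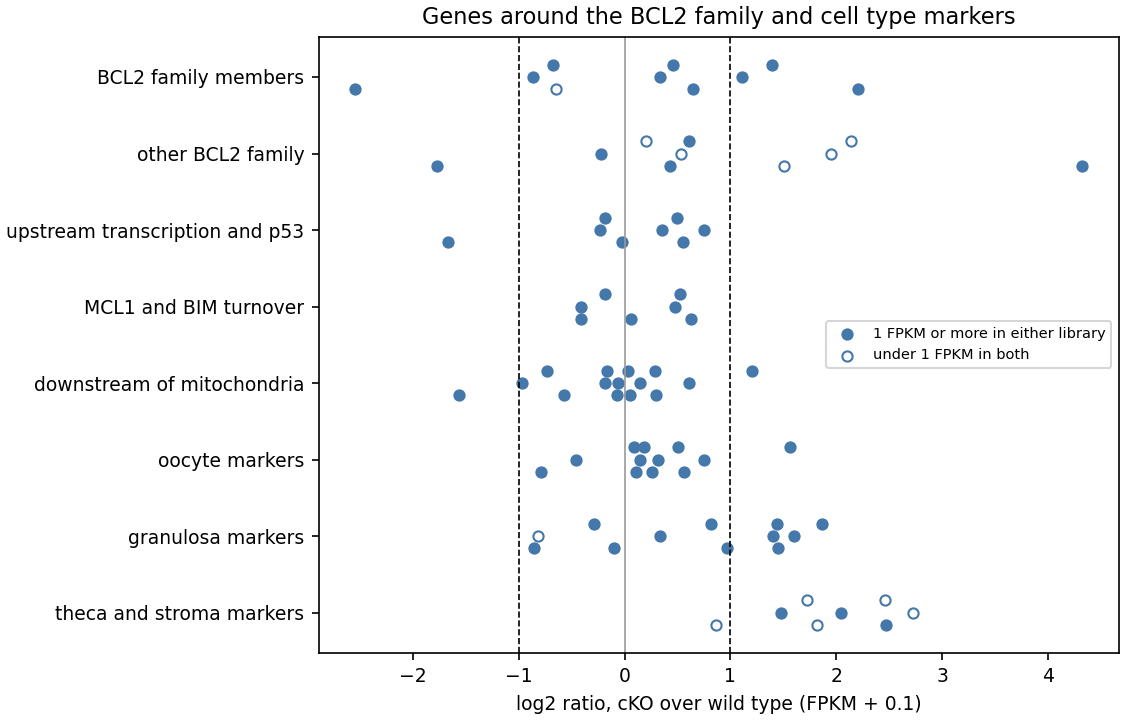
Log2 ratio of cKO over wild type (FPKM + 0.1) for the 10 members, 4 lists of related genes and 3 lists of cell type markers, 1 point per gene; filled points reached 1 FPKM in either library, open points did not, dashed lines mark 2-fold, and the vertical offset within a list only separates points. The upstream, turnover and downstream genes lie mostly between the lines, while all theca and stroma markers lie right of 0.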

How the data were processed

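Oocyte RNA was extracted with Trizol and sequenced as TruSeq libraries on an Illumina instrument, per the labels' protocols. Bowtie 0.12.2 and the build mm10 are named in the submitters' processing notes; how fragments were counted, the annotation and the test are not given in the sources used here. The 3 deposited tables give, per the file headers, FPKM for 1 library per genotype, the linear fold change or ratio of KO over NC, and the authors' p-value and FDR. The KO column matches the title of the cKO sample; the NC column matches no title and was assigned to the wild type because no other group exists. A deposited value of 1e-05 was read as 0 FPKM, and all 18467 deposited fold changes were within 0.01 log2 units of the FPKM quotient. A single line held no values.

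Log2 ratios, calls (floor 1 FPKM, 2-fold), sums and quotients were computed in Python 3.11.15 with pandas 2.3.3 and numpy 2.4.6, tested on simulated data. The median of ratios was taken over genes at 1 FPKM or more in both libraries and TPM over all genes; the sums without the 50 most abundant genes left those out, and the fit on length and GC content covered genes with a known length. Lengths and GC contents came from the longest GENCODE M21 transcript (GRCm38) of 17349 genes matched by gene ID, and quadratic terms of both were fitted. Genes of the lists were matched by symbol or, through RefSeq, by gene ID. All 10 members are named, and of each further list the called genes and the most abundant gene; other genes named from these lists were chosen after their values were seen. The members and lists were chosen with earlier results of these data known. With 1 library per group no test was made.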

Additional observations from a re-analysis of the deposited data

How the results depend on the processing

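*Mcl1* and *Bik* kept their direction and their call under each alternative of pseudocount, scaling and length and GC content, and under each floor and fold rule tried. The number of members called higher, 3 as reported, was 1 with a pseudocount of 1, with a floor of 5 FPKM and with a 3-fold rule. The number called lower, 1 as reported, was 2 after subtracting a fit on length and GC content and 3 with a 1.5-fold rule, where *Bax* and *Bcl2l10* joined *Bik*. After that subtraction the number called higher was 2, and with the 1.5-fold rule it was 4, where *Bcl2l11* joined. The shares of all genes called under the 1.5-fold and 3-fold rules are not given here, so those counts have no background beside them. Across all genes past the floor, 1505 were higher and 1026 lower with a pseudocount of 1, against 2149 and 1442 as reported; with TPM they numbered 2950 and 962, without the 50 most abundant genes 2820 and 1030, and after subtracting the fit on length and GC content 1614 and 1490. *Bok* changed sign after that subtraction, and the cause was not tested. No paired analysis was possible because each genotype has 1 library, and no library could be left out. The unknown depth limits *Bcl2*, *Bak1* and *Bbc3* most.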

Other observations

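The deposited p-values followed the FPKM values cut to whole numbers. Among 15907 genes that share both whole-number parts with at least 1 other gene, 989 of 990 pairs of parts carried 1 p-value each, within 1e-06. For the family this means that the deposited p of *Mcl1* goes with the parts 5 and 26, that of *Bik* with 163 and 27, and that of *Bcl2l10* with 4032 and 2529, whatever the length of the transcript. A long and a short transcript with the same FPKM rest on different numbers of fragments, and these p-values do not carry that difference.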
